A study of Mus musculus with 10 samples.

Results

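The caspases and the apoptosome, the proteases that carry out programmed cell death and the platform that switches them on, were described in mouse teratomas with 3 forms of the tumour suppressor VHL. There were 8 members, chosen by gene name: the caspase genes Casp1, Casp2, Casp6, Casp8, Casp9 and Casp12, the scaffold gene Apaf1 and the mitochondrial flavoprotein gene Aifm1. Each was read from the single-gene probe set with the highest mean over all arrays, and all 8 were found among the 18820 genes so represented. The series comprised 10 arrays, each of 1 teratoma: 4 with P81S VHL, 3 with wildtype VHL and 3 with R167Q VHL. All tumours came from Vhl-/- J1 embryonic stem cells of strain Sv/129 that had been electroporated with a human VHL cDNA, and all grew under the skin of female nu/nu mice, whose age was not given. The labels call the P81S teratomas apoptosis-resistant and the wildtype and R167Q teratomas apoptotic. By the design text, 2 clones stand behind the P81S arrays with 2 replicates each, but which array came from which clone is not stated. The number of clones behind the other forms and the promoter that drives the cDNA were not given in the sources used here. A difference between clones therefore counts as one between genotypes, and no source says that replicates grew in separate animals.

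Caspases are made as inactive precursors and are activated by cleavage. In the intrinsic pathway, cytochrome c that leaves the mitochondrion joins APAF1 into a wheel-shaped complex, the apoptosome, which activates caspase-9 and through it the executioners. Caspase-8 starts the extrinsic pathway below death receptors, caspase-2 is activated on a separate platform after DNA damage or failed division, and caspase-6 is an executioner that cuts nuclear lamins. Caspase-1 processes inflammatory cytokines in the inflammasome, and mouse caspase-12, its relative, has been linked to stress of the endoplasmic reticulum. AIFM1 helps to assemble the respiratory chain in healthy mitochondria, and after release it takes part in a form of cell death that needs no caspase. Activation is by cleavage, so an array that reads RNA does not measure it.

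The promoters of the 3 members on which the results turn are shown because VHL controls the hypoxia-inducible factors, whose binding sites share the core ACGTG or GCGTG. Each is the 250 bases before the RefSeq start site, 5′ to 3′ on the gene's strand in assembly GRCm38.p6, and capitals mark either core on either strand. The Aifm1 stretch lies at chrX:48513564-48513813 on the minus strand, that of Casp6 at chr3:129901165-129901414 on the plus strand and that of Casp8 at chr1:58802252-58802501 on the plus strand.
Aifm1: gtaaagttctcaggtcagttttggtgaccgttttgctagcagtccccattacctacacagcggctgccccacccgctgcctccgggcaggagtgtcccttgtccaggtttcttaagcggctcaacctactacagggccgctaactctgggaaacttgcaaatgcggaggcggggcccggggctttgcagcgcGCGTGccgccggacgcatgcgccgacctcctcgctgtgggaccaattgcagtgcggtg
Casp6: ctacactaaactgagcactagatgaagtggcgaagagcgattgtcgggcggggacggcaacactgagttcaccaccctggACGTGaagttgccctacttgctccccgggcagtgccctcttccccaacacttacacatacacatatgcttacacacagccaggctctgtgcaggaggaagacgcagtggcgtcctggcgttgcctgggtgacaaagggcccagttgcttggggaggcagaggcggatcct
Casp8: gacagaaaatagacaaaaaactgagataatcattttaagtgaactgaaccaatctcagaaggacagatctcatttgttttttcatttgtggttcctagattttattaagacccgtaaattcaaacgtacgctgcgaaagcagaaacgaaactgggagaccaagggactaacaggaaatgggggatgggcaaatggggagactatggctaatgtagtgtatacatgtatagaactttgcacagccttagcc

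Promoters of all 8 members were matched. Of 32841 promoter windows of this length in the same table, 16.6% held ACGTG and 28.2% held GCGTG on either strand, and 38.6% held at least 1 of the cores. The Aifm1 window held GCGTG and the Casp6 window ACGTG, and the Casp8 window held neither. Among the other members, the Casp1 window held ACGTG on both strands within 1 palindrome, Apaf1 held both cores, Casp2 and Casp9 held GCGTG, and Casp12 held neither. The members fell into unlike classes by base composition. Casp1 and Casp12 each had 1 CG dinucleotide and Casp8 had 5, against a median of 6 over all windows, while Casp6 had 11, Casp2 17, Aifm1 19, Casp9 25 and Apaf1 42. A match is a description of these letters and no binding was measured.

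Values are deposited log2 expression levels, and 1 unit is a doubling. Array medians over all probe sets ran from 6.97 to 7.11 log2. P81S teratomas differed from the others across tissues: pluripotency markers had mean levels of 6.19 to 7.81 log2 in P81S and 8.98 to 10.54 in the other arrays, and neural markers 11.23 to 11.60 against 10.40 to 11.04. P81S replicate 1 stood apart, with a squamous epithelium list mean of 9.57 log2 against 6.31 to 7.11 in the other 9 arrays. The mouse Vhl probe set was 1.72 log2 higher in P81S against the mean of both other genotypes (limma, adjusted p = 1.83e-05), and whether it reads the human cDNA or what is left of the mouse gene is not known here, so it is no check of the labels. In such mixed tumours, fewer cells of a type and less RNA per cell cannot be told apart.

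**Figure D1:**
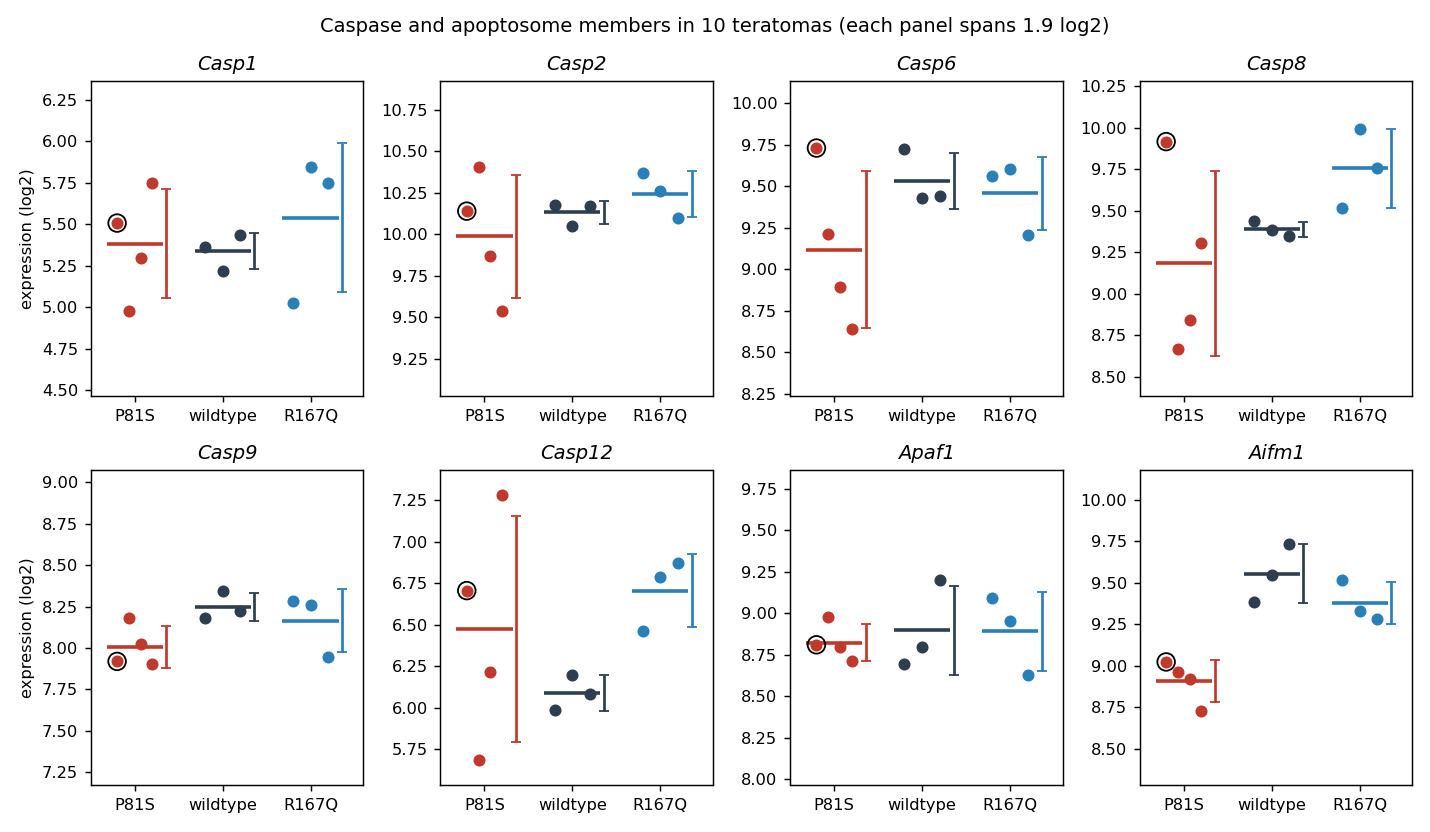
Expression (log2, vertical axis) of the 8 members in each of the 10 teratomas by VHL genotype; points are arrays, horizontal bars group means, error bars SD, and the ringed point is P81S replicate 1. The 4 P81S arrays lie below the other 6 for Aifm1, while for the remaining genes the P81S arrays overlap with the other 6.

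Aifm1 was the member that fell in P81S. P81S replicates 1 to 4 read 9.02, 8.96, 8.92 and 8.73 log2, the wildtype arrays 9.38, 9.55 and 9.74, and the R167Q arrays 9.52, 9.33 and 9.28, each in replicate order. Every P81S array lay below every other array. P81S averaged 8.91 ± 0.13 log2 (SD, n = 4), wildtype 9.56 ± 0.18 (SD, n = 3) and R167Q 9.38 ± 0.13 (SD, n = 3).

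Against the average of the wildtype and R167Q means, Aifm1 fell by 0.56 ± 0.10 on the log2 scale (SE), which is 1.47-fold (limma, adjusted p = 0.00157). It fell by 0.65 ± 0.12 against wildtype (1.57-fold, adjusted p = 0.00188) and by 0.47 ± 0.12 against R167Q (1.38-fold, adjusted p = 0.0183). These comparisons share the 4 P81S arrays. R167Q and wildtype, the pair of apoptotic genotypes, had a log2 difference of -0.18 ± 0.13 for Aifm1 (95% interval -0.47 to 0.11, adjusted p = 0.708).

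The call against R167Q was lost when certain arrays were left out. Without R167Q replicate 1 the difference was -0.40 log2 with adjusted p = 0.0919, and without P81S replicates 3 and 4 it was -0.38 with adjusted p = 0.115. Against the average of the other genotypes, the adjusted p stayed between 0.00026 and 0.026 over 25 alternatives. Aifm1 lies on the X chromosome, where 327 genes above the median level had, as a median per array, values of 0.03 to 0.19 log2 above their mean over the 6 other arrays in P81S and -0.08 to 0.11 in those 6. Of 719 X-linked genes 19.3% were called lower and 21.4% higher. With each chromosome centred on its own median, Aifm1 fell by 0.58 ± 0.10 on the log2 scale (limma, adjusted p = 0.00105).

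Cell cycle markers fell in the same tumours, 14 of 14 measured in P81S against the average of the others. Their mean level was 8.57 to 9.79 log2 in the P81S arrays, 10.71 to 11.02 in wildtype and 10.36 to 10.62 in R167Q. P81S replicate 4 was lowest, and wildtype replicate 3 highest, in both Aifm1 and this list. The same 2 arrays were lowest and highest in the pluripotency list, at 6.19 and 10.54 log2. In the neural list wildtype replicate 3 was lowest, at 10.40 log2, and P81S replicate 2 highest, at 11.60. Pluripotency markers fell in 13 of 14 and neural markers rose in 10 of 12. Among glia markers, 4 of 10 rose and 0 fell. Of all genes tested, 17.4% were called lower and 18.3% higher in P81S against the average of the others. The part of any of these lists in the Aifm1 result was not tested.

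The genes whose centred values ran closest to Aifm1 over the 10 arrays were Rsbn1l, Pa2g4 and Brpf1. Their mean absolute difference from Aifm1 was 0.040, 0.044 and 0.051 log2. Pa2g4 encodes a growth-regulating RNA-binding protein, and Brpf1 encodes a scaffold of a histone acetyltransferase. Pa2g4 had means of 10.91 log2 in P81S, 11.57 in wildtype and 11.38 in R167Q.

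Of the 8 members, 0 rose and 1 fell in P81S against the average of wildtype and R167Q, and 7 did not pass. Of all genes tested, 35.7% were called in that comparison, 18.3% higher and 17.4% lower, against 12.5% of the members, and the difference between these shares was not tested. The median log2 difference of the members was -0.20, against 0.02 over all genes. The estimates of 7 members were below 0 and that of Casp12 above it.

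Against wildtype, where 34.7% of all genes were called (17.2% higher and 17.5% lower), again only Aifm1 passed, and the members' median was -0.17 log2 against 0.01 over all genes. Against R167Q, where 22.5% were called (12.4% higher and 10.1% lower), only Aifm1 passed, and the median was -0.24 against 0.02. Between R167Q and wildtype 0 members passed by limma, 0 had an unadjusted p under 0.05, and 0.0903% of all genes were called, 0.0638% higher and 0.0266% lower.

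Separation of the arrays was counted as well. Between P81S and the other 6 arrays, 1 of 8 members had groups that did not overlap, Aifm1, against 26.4% of all genes (13.7% higher and 12.7% lower). Between P81S and wildtype the count was 2 of 8, Casp9 and Aifm1, both lower, against 40.6% of all genes (19.9% higher and 20.7% lower). Between P81S and R167Q it was 1 of 8, Aifm1, against 30.7% (16.5% higher and 14.2% lower). Between R167Q and wildtype it was 2 of 8, Casp8 and Casp12, both higher, against 19.3% (6.93% higher and 12.4% lower).

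**Figure D2:**
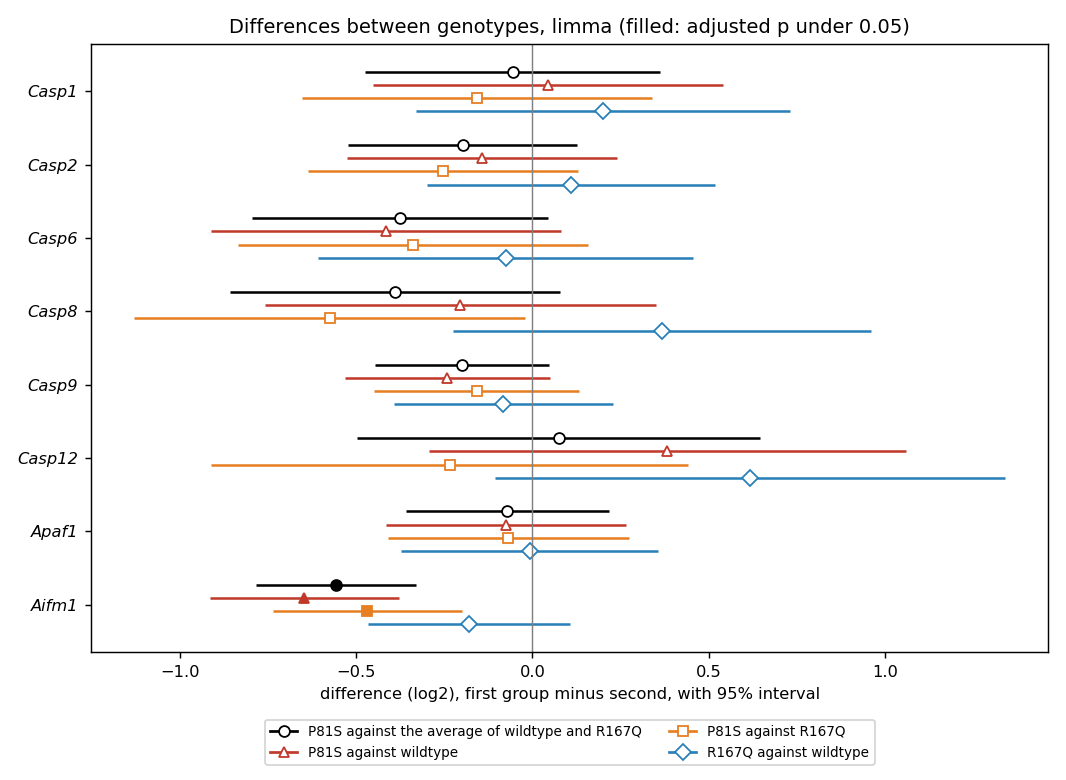
Log2 differences (horizontal axis) of the 8 members with 95% intervals from limma in the 4 comparisons; filled symbols have an adjusted p under 0.05. Filled symbols appear for Aifm1 alone, at -0.56, -0.65 and -0.47 in the comparisons of P81S, and the intervals of Casp8 and Casp12 are the widest.

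The initiators are described first. Casp8, which starts death-receptor killing, read 9.92, 8.67, 8.84 and 9.30 log2 in the P81S replicates in order, against 9.44, 9.38 and 9.34 for wildtype and 9.52, 9.995 and 9.76 for R167Q. The highest and the lowest P81S array were 1.25 log2 apart, while the wildtype arrays lay within 0.092 of each other. P81S replicates 2, 3 and 4 were below all 6 other arrays, and replicate 1 was above every wildtype array.

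For Casp8 the log2 difference of P81S was -0.39 ± 0.21 against the average of the others (limma, adjusted p = 0.188, 95% interval -0.86 to 0.08). It was -0.57 ± 0.25 against R167Q, with an unadjusted p of 0.0437 and an adjusted p of 0.133, and -0.21 ± 0.25 against wildtype (adjusted p = 0.581). Between R167Q and wildtype it was 0.37 ± 0.27 (adjusted p = 0.708), although the 3 R167Q arrays lay above the 3 wildtype arrays.

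Casp9, the caspase of the apoptosome, varied little. Its levels were 7.92, 8.18, 8.03 and 7.91 log2 in P81S, 8.18, 8.34 and 8.22 in wildtype and 8.29, 8.26 and 7.95 in R167Q. The highest P81S array and the lowest wildtype array both rounded to 8.18, with the P81S array lower, so those groups met without overlapping, and R167Q replicate 3 lay among the P81S arrays. The difference of P81S was -0.20 ± 0.11 log2 against the average of the others (limma, adjusted p = 0.199, 95% interval -0.44 to 0.05). A further probe set, annotated to Casp9 and Cela2a together and not used for the gene, averaged 6.34 ± 0.07 log2 in P81S (SD, n = 4), against 6.47 ± 0.14 (SD, n = 3) for wildtype and 6.43 ± 0.13 (SD, n = 3) for R167Q.

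Apaf1, the scaffold, had levels of 8.81, 8.98, 8.80 and 8.71 log2 in P81S, 8.69, 8.80 and 9.20 in wildtype and 9.09, 8.96 and 8.63 in R167Q. The P81S arrays lay inside the range of the others. The difference was -0.07 ± 0.13 log2 against the average of the others (limma, adjusted p = 0.721, 95% interval -0.36 to 0.22).

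Casp2, the initiator linked to DNA damage, had levels of 10.14, 10.41, 9.87 and 9.54 log2 in P81S, 10.17, 10.05 and 10.17 in wildtype and 10.37, 10.26 and 10.10 in R167Q. P81S replicate 2 was the highest of the 10 arrays and P81S replicates 3 and 4 were the lowest. The difference of P81S from the average of the others was -0.20 ± 0.15 log2 (limma, adjusted p = 0.339, 95% interval -0.52 to 0.13). It was -0.34 without P81S replicate 2 (adjusted p = 0.0663) and -0.05 without P81S replicate 4 (adjusted p = 0.805).

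The executioner Casp6 had levels of 9.73, 9.21, 8.89 and 8.64 log2 in P81S, 9.73, 9.43 and 9.44 in wildtype and 9.56, 9.60 and 9.21 in R167Q. P81S replicate 1 was level with the highest wildtype array, and replicates 3 and 4 lay below all 6 other arrays. The difference was -0.38 ± 0.19 log2 against the average of the others (limma, adjusted p = 0.156, 95% interval -0.80 to 0.04), -0.41 ± 0.23 against wildtype (adjusted p = 0.188) and -0.34 ± 0.23 against R167Q (adjusted p = 0.332).

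The values of Casp6 and Casp8 depended on single P81S arrays. Without P81S replicate 1, Casp6 fell by 0.58 ± 0.15 on the log2 scale against the average of the others (limma, adjusted p = 0.00991) and Casp8 fell by 0.63 ± 0.15 (adjusted p = 0.00665). Then 3 of 8 members passed where 37.4% of all genes were called, 2 of 8 against wildtype (36.9% of all genes) and 3 of 8 against R167Q (26.1%), so the first count is near the share over all genes. In the other direction, Casp8 stood at -0.22 log2 without P81S replicate 2 (adjusted p = 0.457) and at -0.28 without replicate 3 (adjusted p = 0.415), and Casp6 at -0.22 without replicate 4 (adjusted p = 0.411). With weights estimated for each array, which gave P81S replicate 1 the lowest weight of 0.316, Casp6 and Casp8 also passed (adjusted p = 0.00612 and 0.00427), and the share of all genes called was 45.4%.

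P81S replicate 1 was the array high in the squamous epithelium list, with gut and glandular epithelium and extracellular matrix lists at 8.68 and 10.98 log2, against 6.65 to 7.93 and 9.51 to 10.41 in the other 9 arrays. The part of these tissues in its Casp6 and Casp8 levels was not tested.

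Without P81S replicates 1 and 2, 4 members fell against the average of the others: Casp2 by 0.48 on the log2 scale, Casp6 by 0.73, Casp8 by 0.50 and Aifm1. The limma adjusted p was 0.00916 for Casp2, 0.00329 for Casp6 and 0.0284 for Casp8, and 36.3% of all genes were called. Without P81S replicates 3 and 4, Casp2 stood at 0.09 log2 with adjusted p = 0.645, Casp6 at -0.02 with 0.945 and Casp8 at -0.28 with 0.521, and 24.5% of all genes were called. Whether these pairs of arrays are clones is not given by the labels.

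**Figure D3:**
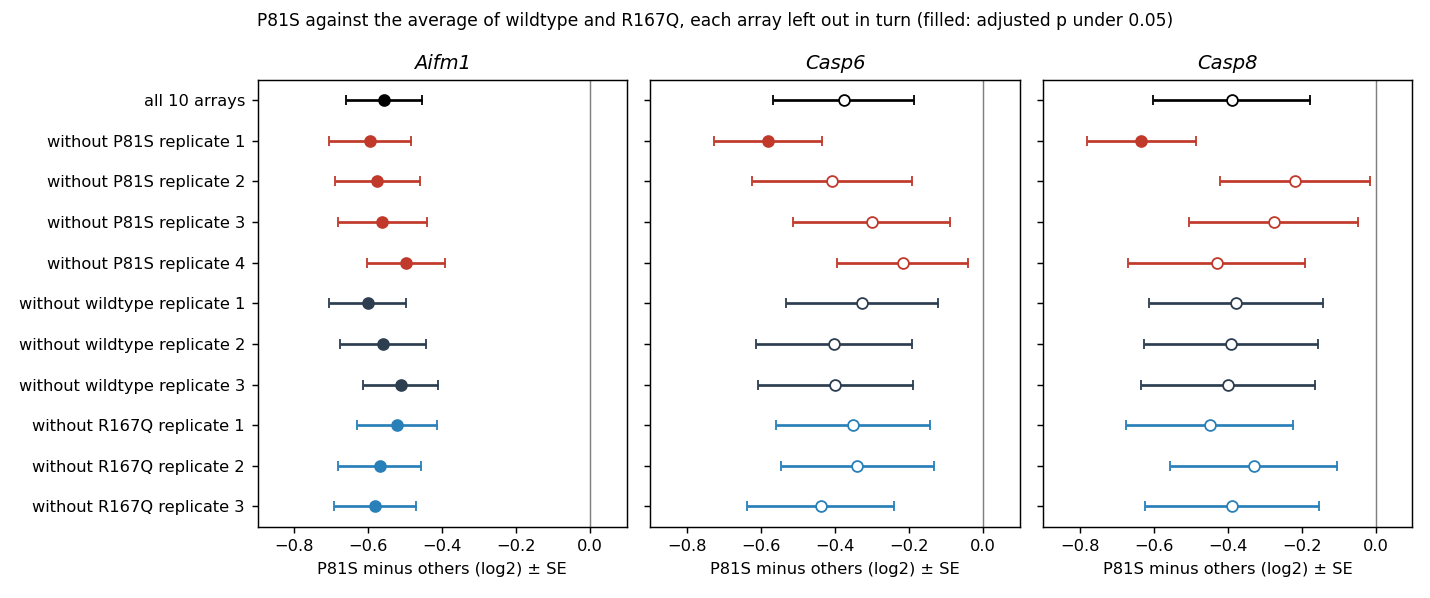
Log2 difference of P81S from the average of wildtype and R167Q (horizontal axis, ± SE from limma) for Aifm1, Casp6 and Casp8 with all 10 arrays and with each array left out in turn; filled points have an adjusted p under 0.05. Aifm1 is filled throughout, and Casp6 (-0.58) and Casp8 (-0.63) are filled without P81S replicate 1 alone.

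The inflammatory pair, Casp1 and Casp12, lie beside Casp4 on chromosome 9 in the order Casp1, Casp4, Casp12. Casp1 had levels of 5.51, 4.98, 5.30 and 5.75 log2 in P81S, 5.37, 5.22 and 5.43 in wildtype and 5.02, 5.85 and 5.75 in R167Q. All 10 lay under the median of the array's control block, 5.98 log2, which is no measured background. The groups overlapped, and the difference of P81S was -0.06 ± 0.19 log2 (limma, adjusted p = 0.854, 95% interval -0.48 to 0.36).

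Casp12 had levels of 6.71, 5.69, 6.21 and 7.28 log2 in P81S, 5.98, 6.20 and 6.08 in wildtype and 6.46, 6.78 and 6.87 in R167Q. The highest and the lowest of the 10 arrays were both P81S, 1.59 log2 apart, and the 3 R167Q arrays lay above the 3 wildtype arrays. The difference of P81S from the average of the others was 0.07 ± 0.26 log2 (limma, adjusted p = 0.857, 95% interval -0.50 to 0.65), and that of R167Q from wildtype was 0.62 ± 0.33 (adjusted p = 0.582). The sign of the P81S estimate turned without P81S replicate 1 (-0.003) and without P81S replicate 4 (-0.20).

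Macrophages, host cells that a nude mouse keeps, commonly express inflammatory caspases. The 18 macrophage markers, all measured, averaged 8.42 to 9.03 log2 over the P81S arrays, 8.38 to 8.74 over wildtype and 8.56 to 9.13 over R167Q, which are sums of 151.6 to 162.5, 150.8 to 157.4 and 154.1 to 164.3. None of them was called in P81S against the average of the others by limma, and 0 had an unadjusted p under 0.05. The same 4 arrays, P81S replicates 1 and 4 and R167Q replicates 2 and 3, were the highest in the macrophage list, in Casp12 and in Casp1, whose probe set is not shown to be above background, so that its order carries little weight. Casp8 was highest in R167Q replicate 2, P81S replicate 1 and R167Q replicate 3, the top 3 arrays of that list. P81S replicate 4, which ranked 4 in the macrophage list, ranked 8 of 10 in Casp8. Casp4 was highest in R167Q replicate 3 and P81S replicate 4, while R167Q replicate 2 ranked 5 and P81S replicate 1 ranked 7 in it. The part of macrophages in these levels was not tested.

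**Figure D4:**
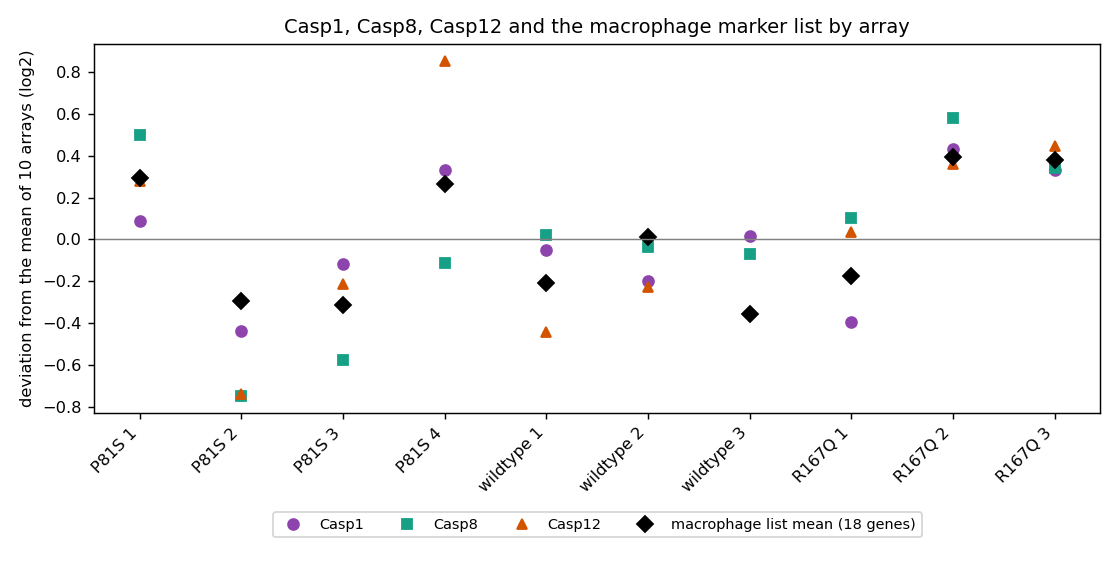
Deviation of Casp1, Casp8, Casp12 and the mean of 18 macrophage markers from their own mean over 10 arrays (log2, vertical axis), by array. P81S replicates 1 and 4 and R167Q replicates 2 and 3 lie above 0 in Casp1, Casp12 and the macrophage list, while Casp8 in P81S replicate 4 lies below 0.

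Spread within a genotype was widest in P81S for 4 of the 8 members, in wildtype for 2 and in R167Q for 2. Ranges in P81S ran from 0.27 log2 for Apaf1 to 1.59 for Casp12, against 0.092 to 0.51 in wildtype and 0.24 to 0.82 in R167Q. P81S had 4 arrays and the others 3, which by itself widens a range. Over all genes the median SD was 0.203 log2 in P81S, 0.153 in wildtype and 0.159 in R167Q.

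The partners of these genes were taken from 5 lists with 67 measured genes of 77. The other caspase genes measured, Casp4, Casp14 and the caspase-like inhibitor Cflar, gave 0 calls by limma in P81S against the average of the others, and 0 unadjusted p under 0.05. Cflar, which holds caspase-8 back, averaged 7.502 ± 0.066 log2 in P81S (SD, n = 4), against 7.52 ± 0.068 (SD, n = 3) for wildtype and 7.65 ± 0.19 (SD, n = 3) for R167Q.

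Among mitochondrial partners and release factors, 1 of 14 rose, 7 fell and 6 did not pass, with a median of -0.22 log2. Cyct, the testis form of cytochrome c, fell from 7.71, 8.17 and 8.25 log2 in wildtype and 7.42, 6.88 and 7.60 in R167Q to 4.48, 4.63, 4.37 and 4.12 in P81S. The P81S arrays lay below all others and below the control block median of 5.98 log2, and the fitted log2 difference was -3.27 ± 0.18 (limma, adjusted p = 9.84e-06). The P81S level is not shown to be above background, so no fold is given. Cycs, the somatic cytochrome c that builds the apoptosome, had a difference of -0.09 ± 0.05 log2 (adjusted p = 0.226). Phb2 and Phb, the prohibitins of the inner mitochondrial membrane, fell by 0.43 ± 0.08 and 0.42 ± 0.10 on the log2 scale (adjusted p = 0.00116 and 0.0058), and Slc25a4, an ADP/ATP carrier, rose by 0.26 ± 0.06 log2 (1.197-fold, adjusted p = 0.00576). Its relative Slc25a5, named after its value was seen, had a difference of -0.30 ± 0.09 log2 (limma, adjusted p = 0.0179). Phb is on chromosome 11 and Slc25a4 on chromosome 8, and with each chromosome centred Slc25a4 stood at 0.14 log2 (adjusted p = 0.0577), and without P81S replicates 3 and 4 at 0.25 (adjusted p = 0.0549). The 7 lower calls became 3 without P81S replicate 3 or P81S replicate 4 and 4 without R167Q replicate 1.

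Among genes of the platforms that activate caspases, 0 of 18 rose, 5 fell and 13 did not pass, with a median of -0.17 log2, and 1 gene with a higher estimate had an unadjusted p under 0.05. Aim2, the DNA sensor of an inflammasome, fell most. Its levels were 6.94, 6.77, 6.90 and 7.07 log2 in P81S, 8.82, 9.18 and 9.39 in wildtype, and 8.22, 8.22 and 8.23 in R167Q. The 3 groups did not overlap, with R167Q between the others. Aim2 fell by 1.76 ± 0.13 on the log2 scale in P81S (3.38-fold, limma, adjusted p = 1.74e-05), and R167Q against wildtype gave -0.91 ± 0.16 with adjusted p = 0.0851.

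Ripk3, the kinase of necroptosis, fell by 0.74 ± 0.15 on the log2 scale (adjusted p = 0.00286), Casp8ap2, which encodes a caspase-8-binding protein, by 0.71 ± 0.16 (adjusted p = 0.00439) and Pidd1, the scaffold of the caspase-2 platform, by 0.49 ± 0.13 (adjusted p = 0.0124). Without P81S replicates 3 and 4, the adjusted p was 0.0518 for Ripk3, 0.0707 for Casp8ap2 and 0.0856 for Pidd1. Without wildtype replicate 3, 1 gene of these platforms was called higher.

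Among caspase inhibitors, 0 of 12 rose, 1 fell and 11 did not pass, with a median of -0.19 log2, and 0 genes with a higher estimate had an unadjusted p under 0.05. The gene that fell was Birc5, for survivin, a protein with a further role in mitosis, by 1.65 ± 0.17 on the log2 scale (3.15-fold, limma, adjusted p = 6.03e-05). Birc5 is also in the cell cycle list, so its fall is counted in both lists. Without P81S replicate 1, 3 inhibitor genes were called lower, where 37.4% of all genes were called. Over all alternatives, the inhibitors called lower ran from 1 to 5 of 12 and those called higher from 0 to 1. Xiap, which encodes a protein that binds and blocks caspase-9, averaged 8.91 ± 0.11 log2 in P81S (SD, n = 4), against 8.73 ± 0.10 (SD, n = 3) for wildtype and 8.93 ± 0.08 (SD, n = 3) for R167Q, with a difference of 0.08 ± 0.09 log2 (adjusted p = 0.554). Cycs, Cflar and Xiap are named for their roles, after their values were seen.

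Caspase substrates and effectors went both ways: 5 of 20 rose, 5 fell and 10 did not pass, with a median of -0.19 log2. Panx1, a membrane channel that caspases open, had levels of 10.002, 10.20, 10.09 and 9.78 log2 in P81S, 9.41, 9.17 and 9.23 in wildtype and 9.35, 9.62 and 8.98 in R167Q. All P81S arrays lay above the rest, and Panx1 rose by 0.72 ± 0.13 log2 (1.65-fold, limma, adjusted p = 0.00144).

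Prkdc, the DNA-dependent protein kinase, fell by 0.78 ± 0.14 on the log2 scale (adjusted p = 0.00106), Parp1, a DNA break sensor, by 0.86 ± 0.16 (adjusted p = 0.00192), and Rock1, the kinase behind membrane blebbing, by 0.58 ± 0.12 (adjusted p = 0.00343). The remaining calls, named after their values were seen, were Sptan1, Gsdme, Il18 and Lmna, which rose, and Lmnb1 and Mcl1, which fell. The 5 higher calls became 3 without P81S replicate 3 and 2 without P81S replicate 4, wildtype replicate 2, wildtype replicate 3 or R167Q replicate 1, and the 5 lower calls became 3 without P81S replicate 3. The share called was 57.1% of the mitochondrial partners, 27.8% of the platform genes, 8.33% of the inhibitors and 50% of the substrates and effectors, against 35.7% of all genes. The cell cycle markers described with Aifm1, Birc5 among them, fell in the same arrays, and their part in these counts was not tested.

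The lists were also counted against each genotype alone. Against wildtype, where 34.7% of all genes were called, 1 mitochondrial partner rose and 8 fell, 0 platform genes rose and 5 fell, 0 inhibitors rose and 1 fell, and 4 substrates or effectors rose and 5 fell. Against R167Q, where 22.5% were called, 1 mitochondrial partner rose and 2 fell, 0 platform genes rose and 3 fell, 0 inhibitors rose and 1 fell, and 2 substrates or effectors rose and 3 fell. Between R167Q and wildtype, limma called 0 genes of any of the 5 lists and 0.0903% of all genes, and an unadjusted p under 0.05 was held by 2 mitochondrial partners, 1 platform gene and 1 substrate or effector, all lower in R167Q.

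**Figure D5:**
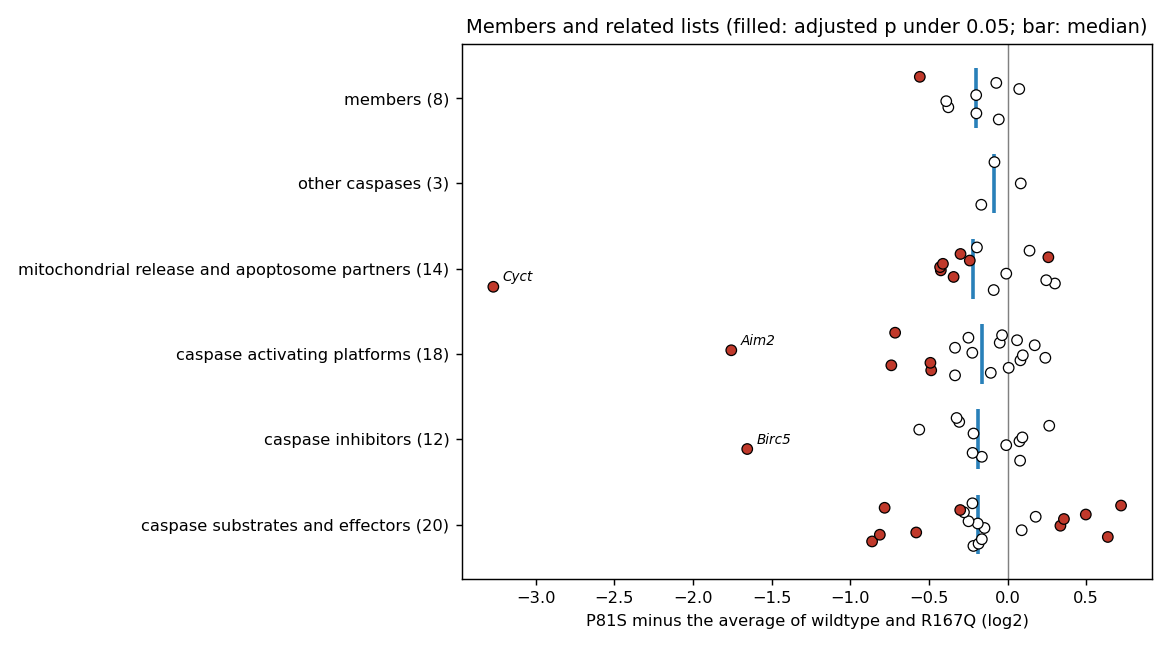
Log2 difference of P81S from the average of wildtype and R167Q (horizontal axis) for the 8 members and the measured genes of 5 related lists, with the number measured in brackets; each point is a gene, filled at an adjusted p under 0.05 (limma), and the vertical bar is the list's median. Cyct (-3.27), Aim2 (-1.76) and Birc5 (-1.65) lie far to the left of the members, whose lowest point is Aifm1 (-0.56).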

How the data were processed

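Each teratoma was hybridised to a 1-colour Affymetrix array. The authors deposited log2 expression values, 1 per probe set and array, and RMA and Partek are named, per the submitters' processing notes, with no version; settings were not given in the sources used here. If arrays were set to 1 distribution, changes in total RNA are removed, so differences are relative. No signal over background was given, and precision is set by how few arrays there are. All 10 columns were used, 0 left out.

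Of 35556 probe sets, the 6612 with the lowest numbers, without annotation, were taken as a control block. Of the rest, 21218 named 1 gene, 1881 several and 5845 none; genes were named from the platform annotation, with Entrez numbers matched to a RefSeq table of GRCm38.p6 for 21185. Probe sequences were not used, so signal shared within a family cannot be separated.

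Limma 3.58.1 (statmod 1.5.0, R 4.3.3) fitted 3 group means over all arrays with a variance trend (7 residual degrees of freedom), two-sided, Benjamini-Hochberg over 18820 genes, called at an adjusted p under 0.05. The p-values measure the spread between these teratomas. The script was tested on simulated data. Named genes were the 8 members, up to 4 called genes of each of 5 partner lists with the smallest p, and the 3 genes closest to each called member. Alternatives were other normalizations, a filter on dim genes, probe set averaging, variance models, fewer groups, array weights, blocks and omitted arrays; chromosome centring and testing all single-gene probe sets were added after seeing the data. Members and lists were chosen with earlier results of these data known.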

Additional observations from a re-analysis of the deposited data

Results flagged for a closer look

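In the 4 P81S arrays, 3 of 24 genes examined had 1 array far from the rest. Their gap over the range was above Dixon's 95% critical value for 4 arrays, which chance exceeds in about 1 in 20 for a single gene. Of the 24 genes, 13 were partner genes picked for a small p in these data, and all were read in the same 4 arrays. That rate is therefore no yardstick for the count of 3. Casp4, an inflammatory caspase, read 6.03 log2 in P81S replicate 4 against 5.51, 5.49 and 5.49 in replicates 1 to 3 (gap ratio 0.957). Casp14, the caspase of cornified skin, read 6.21 log2 in P81S replicate 1 against 5.19, 5.10 and 5.02 in replicates 2 to 4 (0.855), and that array had a squamous epithelium list mean of 9.57 log2 against 6.31 to 6.92 in the other P81S arrays. Of these Casp4 and Casp14 values, only 6.03 and 6.21 log2 were above the control block median of 5.98, which is no measured background. Ripk3 read 6.79 log2 in P81S replicate 1 against 6.33, 6.26 and 6.32 in replicates 2 to 4 (0.882). The causes were not tested.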

How the results depend on the processing

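Of 724 member values under alternatives, 670 kept their direction and side of the threshold, 3 lost the call (Aifm1 against R167Q), 19 gained one and 32 changed sign, none of the latter called. Over the alternatives, all-gene calls ran from 4605 to 8538 in P81S against the average, 4828 to 8669 against wildtype, 2328 to 5960 against R167Q and 5 to 42 between R167Q and wildtype, with 6713, 6530, 4234 and 17 as reported. Members called were 1, 1 and 1 of 8 in the 3 P81S comparisons as reported. With array weights they were 3, 3 and 3, where 45.4%, 46.1% and 31.7% of all genes were called. Without P81S replicates 1 and 2 they were 4, 3 and 4 (36.3%, 36.8% and 26.7% of all genes). Without P81S replicates 3 and 4, 0 members were called against R167Q (12.9% of all genes). With 1 array left out, members called ran from 1 to 3 against the average, 1 to 2 against wildtype, 0 to 3 against R167Q and 0 to 0 between R167Q and wildtype. The all-gene shares then ran from 30.5% to 37.4%, 27% to 36.9%, 12.4% to 26.1% and 0.0266% to 0.0531%, in that order. Without P81S replicates 3 and 4, 2419 genes were called against R167Q, and 2328 without R167Q replicate 1.

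The replicate block gave 0 members called against R167Q (Aifm1 -0.41 log2, limma, adjusted p = 0.0911), where 15.7% of all genes were called. Deviations from the group means correlated at -0.28 to 0.21 between same-numbered arrays, 2 of 9 pairs over 0.1. Differently numbered pairs were not set beside them, so whether the numbers pair the samples is not known. Random blocks for the 3 possible clone pairings had correlations of 0.047, -0.23 and -0.029. Fits of only the groups compared give no value against the average, and the filter on dim genes drops Casp1.

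Signs turned for members that were not called, in log2. With 1 array left out, Casp12 against the average ran from -0.195 to 0.336, Casp1 from -0.185 to 0.0792 and Apaf1 from -0.137 to 0.00496. Against wildtype Casp1 ran from -0.0776 to 0.180, Casp2 from -0.283 to 0.00657 and Apaf1 from -0.177 to 0.0778. Against R167Q Casp12 ran from -0.504 to 0.0270 and Apaf1 from -0.200 to 0.0315. Between R167Q and wildtype Apaf1 ran from -0.109 to 0.146, Casp6 from -0.150 to 0.0492 and Casp9 from -0.143 to 0.0256. Without P81S replicates 3 and 4, Casp2 was 0.0868 against the average, 0.142 against wildtype and 0.0317 against R167Q, Casp12 was -0.201 against the average, Casp1 was -0.0958 against wildtype, and Casp6 was 0.0150 and Apaf1 0.00234 against R167Q. Without replicates 1 and 2, Casp1 was 0.0849 against the average and Casp12 0.0409 against R167Q. With the replicate block, Casp12 was -0.195 against the average, and Casp1 was -0.0776 and Casp2 0.00657 against wildtype. With array weights Casp12 was -0.0860 against the average. Between R167Q and wildtype, Apaf1 was 0.0682 with array weights, 0.00332 with quantile normalization and 0.0160 with each chromosome centred. The causes were not tested.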
